A study of Mus musculus with 17 samples.

Results

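The NF-kB subunits and inhibitors studied here are 10 genes: the subunits Rela, Relb, Rel, Nfkb1 and Nfkb2, the inhibitors of kappa B Nfkbia, Nfkbib and Nfkbie, the related nuclear protein gene Bcl3, and Tnfaip3, which encodes a ubiquitin-editing enzyme that restrains the pathway. They were taken by name, as the probes whose gene name in the scanner files equals one of these symbols, which gave 15 probes of 55681 non-control probes on the array. A probe was kept where at least 4 arrays had it flagged as well above background. All 15 probes passed, and all 10 genes were therefore among the 27580 gene names tested. Each gene was tested through its brightest probe, and Relb, Nfkb1 and Nfkbib had further probes. Rel passed the filter on 7 arrays, 6 of them irradiated.

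The arrays measured RNA of intestinal stem cells that had been sorted by flow cytometry from LGR5-GFPki mice, in which green fluorescent protein reports Lgr5, the R-spondin receptor gene of crypt base stem cells. There were 4 groups: irradiated LGR5hi cells (12 Gy, n = 4 arrays), non-irradiated LGR5hi cells (0 Gy, n = 4), irradiated LGR5lo cells (12 Gy, n = 4) and non-irradiated LGR5lo cells (0 Gy, n = 5). The design asks what a 12 Gy dose did within 3 hours to cells of the high and of the low GFP gate. Every group carried the same reporter, and each group held 2 female arrays, the rest being male. In the irradiated groups the male arrays were replicates 1 and 3, and in the non-irradiated groups they were replicates 2, 4 and, for LGR5lo, 5. The labels give no age, and they do not say whether an array was 1 mouse or a pool or whether LGR5hi and LGR5lo cells of a number came from the same mouse. The p-values therefore measure the spread between these samples, which may be technical. A lower level in a sorted population can mean fewer cells of a type or less RNA per cell, which cannot be told apart here.

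NF-kB factors are dimers of Rel-family proteins that are held in the cytoplasm by inhibitors of kappa B until a kinase complex marks the inhibitor for degradation. In the canonical route Rela pairs with the product of Nfkb1, and in the noncanonical route Relb pairs with the processed product of Nfkb2. Several genes of the system, among them Nfkbia, Tnfaip3 and Nfkb2, are themselves textbook targets of NF-kB, and in the intestinal epithelium the pathway is known for its part in inflammation and in survival after radiation.

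The 75th percentile of the processed signal lay between 286 and 627 intensity units over the 17 arrays, and 15 of the 16 arrays with flags had 58.9% to 73.9% of spots well above background. Replicate 2 of non-irradiated LGR5lo stood apart, with 95.6% of its spots over background and a slope of 0.79 in the spike-in controls. For replicate 4 of non-irradiated LGR5lo the file header gives a spike-in slope of 0, with 60.9% of spots over background. What lies behind that slope was not tested. The file of replicate 1 of non-irradiated LGR5hi is damaged, so its values were taken from the deposited value table and it has no background flags. Replicates 1 and 2 of each group lay on slide 1, replicates 3 and 4 on slide 2, and replicate 5 of non-irradiated LGR5lo on slide 3. All 6 crypt stem cell markers and all 6 epithelial markers were well above background on every array with flags, and all 6 stem cell markers were higher in LGR5hi than in LGR5lo without irradiation. The mean of the stem cell list spanned 3.31 to 3.76 in irradiated LGR5hi and 4.67 to 4.88 in non-irradiated LGR5hi, and 5 of the 6 genes fell after 12 Gy. In LGR5lo it spanned 1.28 to 1.97 with irradiation and 2.55 to 3.26 without, and again 5 of 6 fell. Levels here and below are log2 of the processed signal after division by the 75th percentile of that array, so they compare arrays for a probe but not probes with each other.

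After 12 Gy, 7 of the 10 genes rose in LGR5hi cells and the same 7 rose in LGR5lo cells: Nfkb2, Nfkbia, Tnfaip3, Nfkbie, Relb, Rela and Nfkbib. A call here is a limma adjusted p under 0.05 over all genes, and by that rule 6.18% of all genes rose in LGR5hi and 4.5% in LGR5lo, with 13.5% and 7.52% called in either direction. All genes means the 27580 names tested, of which 18097 are in the RefSeq gene table. Shares over those alone are not given here. The median log2 difference of the 10 genes was 1.33 in LGR5hi (1.0 with the dim gene Rel at its bound) against -0.02 for all genes, and 1.01 in LGR5lo against -0.13 for all genes. Every irradiated array lay above every non-irradiated array of the same sort for 7 genes in LGR5hi, where 10.8% of all genes separate this way, and for 6 genes in LGR5lo, where 5.95% do. Bcl3, Rel and Nfkb1 did not pass the test in either sort.

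**Figure D1:**
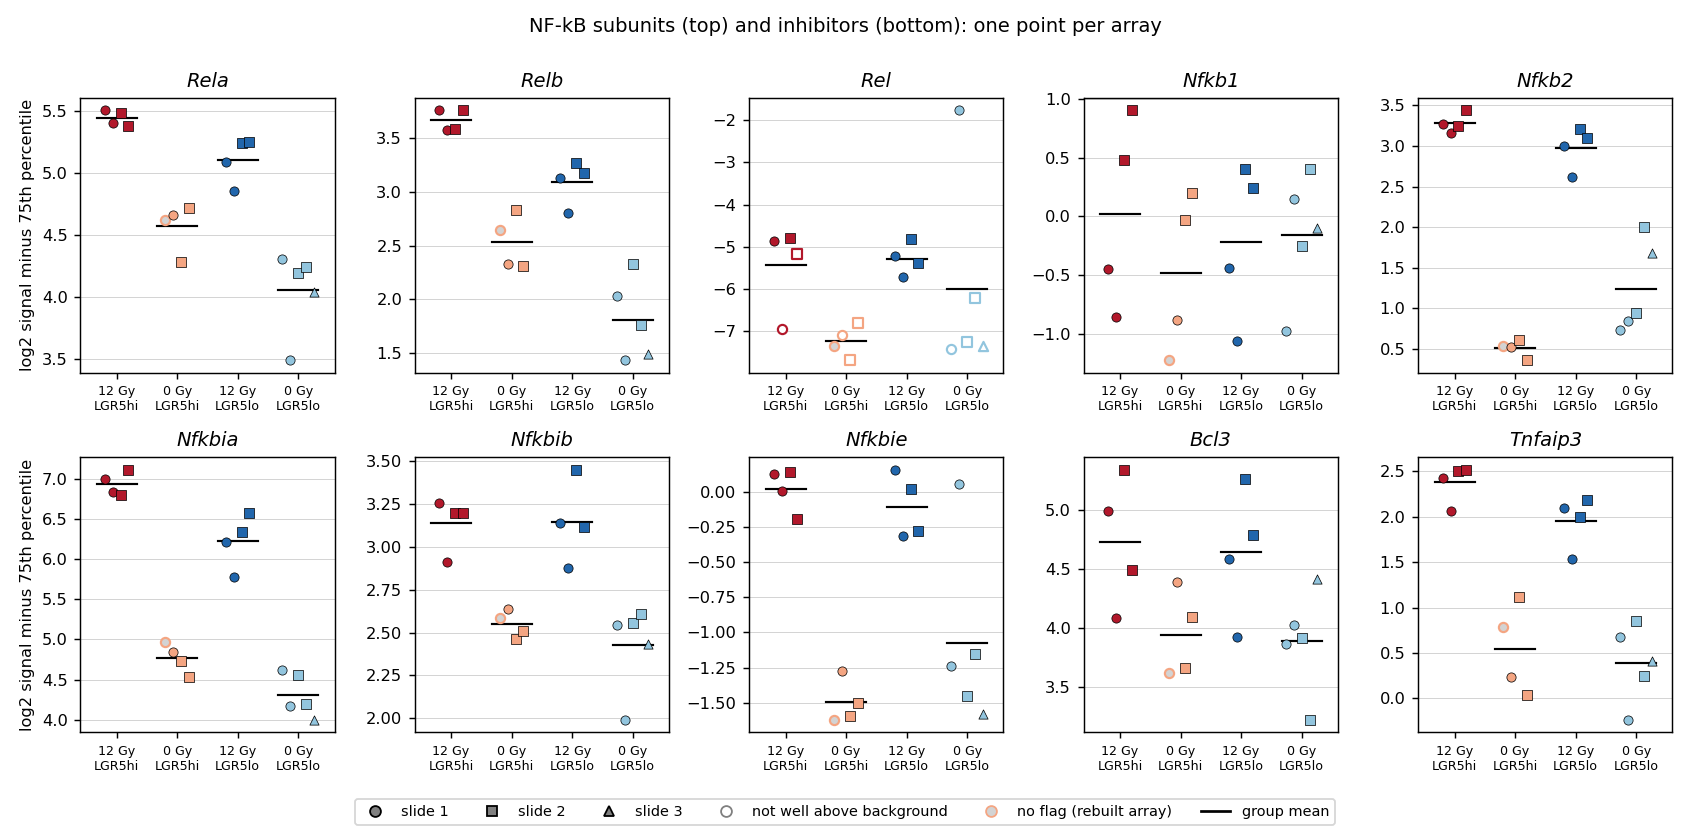
Level of each gene (log2, scaled to the 75th percentile of each array, own axis per gene) on each of the 17 arrays, by dose and sort, with group means as lines and the slide as the point shape. For Nfkb2, Nfkbia, Tnfaip3, Relb, Rela and Nfkbib the 12 Gy points lie above all 0 Gy points of the same sort; hollow Rel points were not well above background.

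Nfkb2, the noncanonical subunit, had the largest fold of the 10 genes in LGR5hi. Its level was 3.28, 3.16, 3.25 and 3.44 on the irradiated LGR5hi arrays, against 0.53, 0.52, 0.61 and 0.36 on the non-irradiated ones. The groups were far apart and each was tight. The difference was 2.77 ± 0.24 (log2 ± SE, 95% interval 2.26 to 3.29), or 6.84-fold, with a limma adjusted p of 1.6e-06. In LGR5lo the levels were 3.00, 2.62, 3.20 and 3.1 after irradiation, against 0.73, 0.85, 0.94, 2.01 and 1.68 without it. The groups did not overlap, but replicates 4 and 5 of non-irradiated LGR5lo were higher than the other 3. The LGR5lo difference was 1.74 ± 0.23 (1.25 to 2.23), or 3.34-fold, with a limma adjusted p of 0.000187. Within slides 1 and 2 the differences were 2.69 and 2.86 in LGR5hi, and 2.02 and 1.68 in LGR5lo.

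Relb, the partner of the Nfkb2 product, rose in both sorts. It stood at 3.76, 3.57, 3.58 and 3.76 in irradiated LGR5hi, against 2.65, 2.33, 2.83 and 2.31 in non-irradiated LGR5hi. In LGR5lo it was 3.13, 2.81, 3.26 and 3.18 with irradiation, against 2.03, 1.44, 2.33, 1.77 and 1.49 without. Neither pair of groups overlapped, and the irradiated arrays were the tighter ones. The differences were 1.14 ± 0.20 in LGR5hi (2.2-fold, limma adjusted p = 0.000843) and 1.28 ± 0.19 in LGR5lo (2.43-fold, limma adjusted p = 0.000416).

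Rela, the transactivating subunit of the canonical dimer, was 5.51, 5.40, 5.48 and 5.38 in irradiated LGR5hi, against 4.62, 4.66, 4.28 and 4.72 in non-irradiated LGR5hi. Irradiated LGR5lo arrays had 5.09, 4.86, 5.24 and 5.25, against 4.31, 3.50, 4.20, 4.24 and 4.05 in non-irradiated LGR5lo. The groups were separate in both sorts, and the lowest value of all was on the non-irradiated LGR5lo array that stands apart. Rela rose by 0.87 ± 0.17 in LGR5hi (1.83-fold, limma adjusted p = 0.00276) and by 1.05 ± 0.17 in LGR5lo (2.07-fold, limma adjusted p = 0.000858).

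Nfkb1, which encodes the precursor of the other canonical subunit, was not called. Its levels were -0.44, -0.85, 0.48 and 0.90 in irradiated LGR5hi, against -1.22, -0.88, -0.03 and 0.20 in non-irradiated LGR5hi. They were -0.44, -1.06, 0.40 and 0.24 in irradiated LGR5lo, against -0.97, 0.15, -0.25, 0.40 and -0.10 in non-irradiated LGR5lo. The groups overlapped, and in 3 of the 4 groups both arrays of slide 2 were above both arrays of slide 1. The differences were 0.50 ± 0.44 in LGR5hi (95% interval -0.44 to 1.44, limma adjusted p = 0.608) and -0.06 ± 0.42 in LGR5lo (-0.95 to 0.83, limma adjusted p = 0.934). The LGR5hi interval includes a change of the size of Rela's.

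Rel, the subunit best known from lymphocytes, was dim. It was well above background on 2 of 4 irradiated LGR5hi arrays and 0 of 3 flagged non-irradiated LGR5hi arrays, and on 4 of 4 irradiated LGR5lo arrays and 1 of 5 non-irradiated LGR5lo arrays. The array design gives its only probe, of 60 bases, a genome position of 15 bases, and whether this bears on the dim signal was not tested. The levels were -4.86, -6.96, -4.79 and -5.17 in irradiated LGR5hi, against -7.37, -7.10, -7.69 and -6.82 in non-irradiated LGR5hi. In LGR5lo they were -5.22, -5.72, -4.82 and -5.39 with irradiation, against -7.44, -1.76, -7.27, -6.22 and -7.35 without. The single value of -1.76 came from the array that stands apart and was far above every other. With it Rel was called in neither sort (limma adjusted p = 0.287 in LGR5hi and 0.615 in LGR5lo). Without it the fit gave limma adjusted p-values of 0.00665 in LGR5hi and 0.0145 in LGR5lo, but no flagged non-irradiated array was then well above background (0 of 3 and 0 of 4). The non-irradiated level is therefore only a bound, which lay about at the irradiated mean in LGR5lo and above it in LGR5hi, so no size of change is given and Rel is not counted among the genes that rose.

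Among the inhibitors, Nfkbia, whose product is the classical inhibitor that NF-kB induces in a feedback loop, rose most. It stood at 7.0, 6.83, 6.79 and 7.11 in irradiated LGR5hi, against 4.97, 4.84, 4.73 and 4.54 in non-irradiated LGR5hi. Irradiated LGR5lo arrays had 6.22, 5.78, 6.33 and 6.57, against 4.61, 4.17, 4.56, 4.19 and 4.0 in non-irradiated LGR5lo. The gap between the groups was several times their spread in both sorts. The differences were 2.17 ± 0.19 in LGR5hi (4.49-fold, limma adjusted p = 1.22e-06) and 1.92 ± 0.18 in LGR5lo (3.78-fold, limma adjusted p = 4.62e-06). Within slides 1 and 2 they were 2.01 and 2.32 in LGR5hi, and 1.6 and 2.08 in LGR5lo.

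Nfkbie, the epsilon inhibitor, was 0.13, 0.01, 0.14 and -0.20 in irradiated LGR5hi, against -1.62, -1.28, -1.6 and -1.50 in non-irradiated LGR5hi. In LGR5lo it was 0.16, -0.32, 0.02 and -0.28 with irradiation, against -1.24, 0.06, -1.46, -1.16 and -1.58 without. The LGR5hi groups were wide apart, while in LGR5lo the array that stands apart lay among the irradiated values and made the only overlap. Nfkbie rose by 1.52 ± 0.27 in LGR5hi (2.86-fold, limma adjusted p = 0.0012) and by 0.97 ± 0.26 in LGR5lo (1.96-fold, limma adjusted p = 0.0319). With slide as a block the LGR5lo difference was 0.84 ± 0.25 and was not called (limma adjusted p = 0.0563), and within slides 1 and 2 it was 0.51 and 1.18. The LGR5lo call was also lost when any of 7 arrays was left out (irradiated LGR5lo replicates 1, 3 and 4 and non-irradiated LGR5lo replicates 1, 3, 4 and 5), with limma adjusted p between 0.0523 and 0.102. When both that array and the damaged one were left out, the LGR5lo difference was 1.25 ± 0.15 (limma adjusted p = 0.000128), an alternative chosen after seeing the data.

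Nfkbib, the beta inhibitor, was 3.26, 2.91, 3.19 and 3.20 in irradiated LGR5hi, against 2.58, 2.64, 2.46 and 2.51 in non-irradiated LGR5hi. In LGR5lo it was 3.14, 2.88, 3.45 and 3.11 with irradiation, against 2.55, 1.99, 2.56, 2.61 and 2.43 without. The groups were separate in both sorts, by a smaller gap than for Nfkbia. The differences were 0.59 ± 0.16 in LGR5hi (1.51-fold, limma adjusted p = 0.0207) and 0.72 ± 0.15 in LGR5lo (1.64-fold, limma adjusted p = 0.00816). The LGR5hi call was lost without any of 5 arrays (irradiated LGR5hi replicates 1, 3 and 4 and non-irradiated LGR5hi replicates 3 and 4), with differences of 0.55 to 0.58 and limma adjusted p between 0.0513 and 0.0645.

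Bcl3, an inhibitor-like protein that binds NF-kB dimers in the nucleus, was not called. It stood at 5.0, 4.08, 5.35 and 4.49 in irradiated LGR5hi, against 3.62, 4.39, 3.65 and 4.09 in non-irradiated LGR5hi. In LGR5lo it was 4.58, 3.92, 5.27 and 4.79 with irradiation, against 3.87, 4.02, 3.91, 3.22 and 4.42 without. The groups overlapped in both sorts. The male arrays (replicates 1 and 3 of the irradiated groups, 2 and 4 of non-irradiated LGR5hi) were above the female arrays in both LGR5hi groups, but not on every array in either LGR5lo group. The differences were 0.79 ± 0.33 (95% interval 0.09 to 1.49, limma adjusted p = 0.145) in LGR5hi and 0.75 ± 0.31 (0.09 to 1.41, limma adjusted p = 0.158) in LGR5lo. With sex as a covariate Bcl3 had adjusted p-values of 0.0827 and 0.0864 in limma, still not called.

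Tnfaip3, whose product removes activating ubiquitin chains and so brakes signalling to the kinase complex, rose in both sorts. Its level was 2.43, 2.06, 2.51 and 2.52 in irradiated LGR5hi, against 0.79, 0.24, 1.12 and 0.04 in non-irradiated LGR5hi. In LGR5lo it was 2.10, 1.53, 2.0 and 2.18 with irradiation, against 0.67, -0.23, 0.85, 0.25 and 0.41 without. All irradiated arrays were above all non-irradiated ones, whose own values were more scattered. The differences were 1.83 ± 0.26 in LGR5hi (3.56-fold, limma adjusted p = 0.000157) and 1.56 ± 0.25 in LGR5lo (2.96-fold, limma adjusted p = 0.000909).

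**Figure D2:**
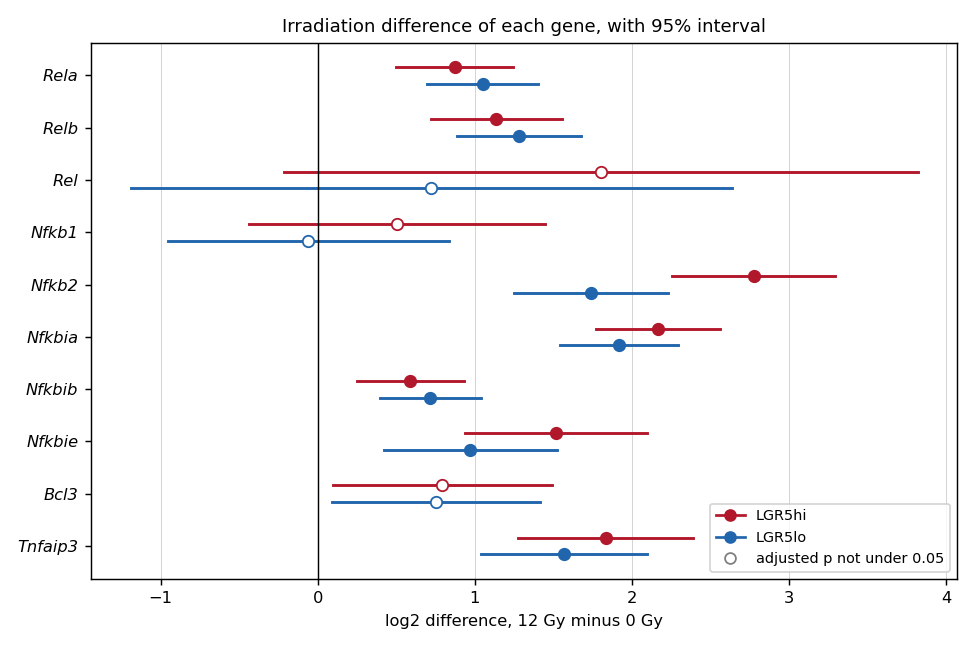
Irradiation difference (log2, 12 Gy minus 0 Gy) of each gene in LGR5hi and LGR5lo cells, with 95% intervals from limma and hollow points where the adjusted p was not under 0.05. Nfkb2 at 2.77 and Nfkbia at 2.17 lead in LGR5hi, and the intervals of Rel and Nfkb1 include 0 in both sorts. The Rel points are set against non-irradiated arrays of which all flagged LGR5hi ones and 4 of 5 LGR5lo ones were not well above background.

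Each of the 7 genes was higher after irradiation within slide 1 and within slide 2, in both sorts. In LGR5hi the ranges were 0.47 to 2.69 on slide 1 and 0.71 to 2.86 on slide 2. In LGR5lo they were 0.51 to 2.02 and 0.70 to 2.08. With 2 arrays a group, limma called 2 of the 10 genes on slide 1 and 5 on slide 2 in LGR5hi, Rel among the 5, where 0.979% and 5.69% of all genes were called. In LGR5lo it called 0 on slide 1, where 0.152% of all genes were called, and 1 on slide 2, where 1.64% were.

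Markers of blood cells were followed as well, since leukocytes express many of the same genes. Of 24 leukocyte markers 22 were tested, and the mean of the list spanned -1.77 to -1.41 in irradiated LGR5hi and -2.02 to -1.79 in non-irradiated LGR5hi, with no overlap. In LGR5lo it spanned -1.50 to -1.16 with irradiation and -1.72 to -0.33 without. In LGR5hi 2 markers rose, Cd79b and Cd14, and none fell. In LGR5lo 3 rose (Cd79b, Cd14 and S100a9) and 3 fell (Cd8a, Itgax and Coro1a). The mean of 8 stromal and endothelial markers spanned -2.54 to -2.03 in irradiated LGR5hi and -2.74 to -2.38 in non-irradiated LGR5hi. In LGR5lo it spanned -2.54 to -2.36 with irradiation and -2.69 to -0.93 without. Lum, a fibroblast marker, was never well above background. Of 5 Paneth cell markers Pla2g2a rose in LGR5hi. The mean of 8 enterocyte markers varied widely between LGR5hi arrays, over 0.99 to 3.83 with irradiation and 0.43 to 5.04 without. In LGR5lo it spanned 3.47 to 3.75 with irradiation and 2.85 to 4.69 without. No enterocyte marker was called after irradiation in either sort. Between 17 and 21 of the 22 leukocyte markers were well above background on every flagged array of a group. The part of such cells, and that of the fall in stem cell markers, in the changes of the NF-kB genes was not tested.

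The promoters of the 10 genes were read for kappa B sites. RefSeq's GRCm38.p6 table, which gives 250 bases before to 50 bases after each gene's start, held 8 of the 10 genes, and Relb and Nfkb1 were not in it. The kappa B decamer consensus was searched on both strands. It was found at least once in the windows of 6 of these genes (Nfkb2, Rel, Nfkbia, Nfkbie, Tnfaip3 and Bcl3) and not in those of Rela and Nfkbib, and 8.46% of 32851 windows in the table hold it. Nfkb2, Rel and Tnfaip3 each had a window with 2 or more matches, overlapping ones counted, as 1.22% of windows have. The table holds 11 windows for the 8 genes, since some have more than 1 start. By window, as the 8.46% is counted, 8 of the 11 hold a match, and overlapping windows of Nfkb2 share a match. A window of each of the 4 called genes with the largest rises in LGR5hi is shown in the direction of the gene, with the decamer matches in capitals.
Nfkb2, chr19:46304487-46304786, plus strand: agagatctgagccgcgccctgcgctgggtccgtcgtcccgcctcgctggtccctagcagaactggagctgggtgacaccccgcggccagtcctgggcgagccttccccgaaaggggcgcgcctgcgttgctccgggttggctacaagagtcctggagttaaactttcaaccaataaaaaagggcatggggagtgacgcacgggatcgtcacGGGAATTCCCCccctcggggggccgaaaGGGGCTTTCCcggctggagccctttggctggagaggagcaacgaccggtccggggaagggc
Nfkbia, chr12:55492598-55492897, minus strand: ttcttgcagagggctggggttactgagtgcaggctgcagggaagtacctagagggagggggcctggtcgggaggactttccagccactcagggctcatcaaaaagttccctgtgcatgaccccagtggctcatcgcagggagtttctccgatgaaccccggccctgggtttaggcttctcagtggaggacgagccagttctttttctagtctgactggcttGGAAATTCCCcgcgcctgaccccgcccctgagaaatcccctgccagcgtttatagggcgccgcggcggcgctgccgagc
Tnfaip3, chr10:19015361-19015660, minus strand: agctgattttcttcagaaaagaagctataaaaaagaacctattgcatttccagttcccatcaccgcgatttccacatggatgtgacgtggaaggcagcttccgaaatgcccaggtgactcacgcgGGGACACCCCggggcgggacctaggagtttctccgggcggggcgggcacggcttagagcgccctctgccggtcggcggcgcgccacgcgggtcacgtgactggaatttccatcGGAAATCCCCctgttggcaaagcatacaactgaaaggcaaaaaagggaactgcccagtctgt
Nfkbie, chr17:45555450-45555749, plus strand: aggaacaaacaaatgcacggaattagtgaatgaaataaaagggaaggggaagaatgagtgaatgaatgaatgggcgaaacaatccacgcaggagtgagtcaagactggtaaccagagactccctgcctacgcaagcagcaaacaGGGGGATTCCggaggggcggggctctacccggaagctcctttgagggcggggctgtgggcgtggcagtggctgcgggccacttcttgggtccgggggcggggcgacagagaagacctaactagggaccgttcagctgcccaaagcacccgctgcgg

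In these windows, counted from the start base as 0, the Nfkb2 matches lay at -39 to -29 and at -11 to -2. The Nfkbia match lay at -29 to -20, the Nfkbie match at -106 to -97, and the Tnfaip3 matches at -125 to -116 and -12 to -3. Rel had a match at -92 to -82 and Bcl3 at 2 to 11. A match is a description of the letters. Of the 7 called genes, Nfkb2, Nfkbia, Tnfaip3 and Nfkbie have one, Rela and Nfkbib have none in the window, and Relb has no window here. Bcl3 and Rel, which have one, were not called, and Rel's non-irradiated level is mostly a bound. The part of these sites in the changes was not tested.

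The probes behind 2 leading genes and a Relb probe that behaved differently are given next, 5′ to 3′, as the array design holds them, with mm9 positions. The Nfkb2 and Nfkbia probes span more of the genome than their own 60 bases, and so cross at least 1 intron.
Nfkb2, chr19:46386146-46386285, plus strand: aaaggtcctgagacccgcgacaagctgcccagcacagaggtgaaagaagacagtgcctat
Nfkbia, chr12:56590945-56591440, minus strand: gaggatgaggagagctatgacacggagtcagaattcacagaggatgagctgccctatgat
Relb, probe 3, chr7:20203058-20203117, minus strand: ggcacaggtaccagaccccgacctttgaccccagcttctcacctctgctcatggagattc

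Relb was measured by 3 probes. The first and second, which share 9 bases, gave like values, and the second differed by 1.11 ± 0.20 in LGR5hi and 1.41 ± 0.19 in LGR5lo (limma adjusted p over all probes 0.00141 and 0.000265). Probe 3, which the design ties to an Ensembl transcript and whose position is given above, differed by 0.03 ± 0.29 in LGR5hi and by -0.67 ± 0.27 in LGR5lo (limma adjusted p 0.978 and 0.159). Nfkbib's further probes gave 0.59 ± 0.20 and 1.17 ± 0.32 in LGR5hi, and 0.72 ± 0.19 and 1.21 ± 0.30 in LGR5lo. Of these, the first in LGR5hi had a limma adjusted p of 0.0808 and the other 3 were called. The second Nfkb1 probe gave 0.23 ± 0.22 and 0.44 ± 0.21, and was not called in either sort.

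**Figure D3:**
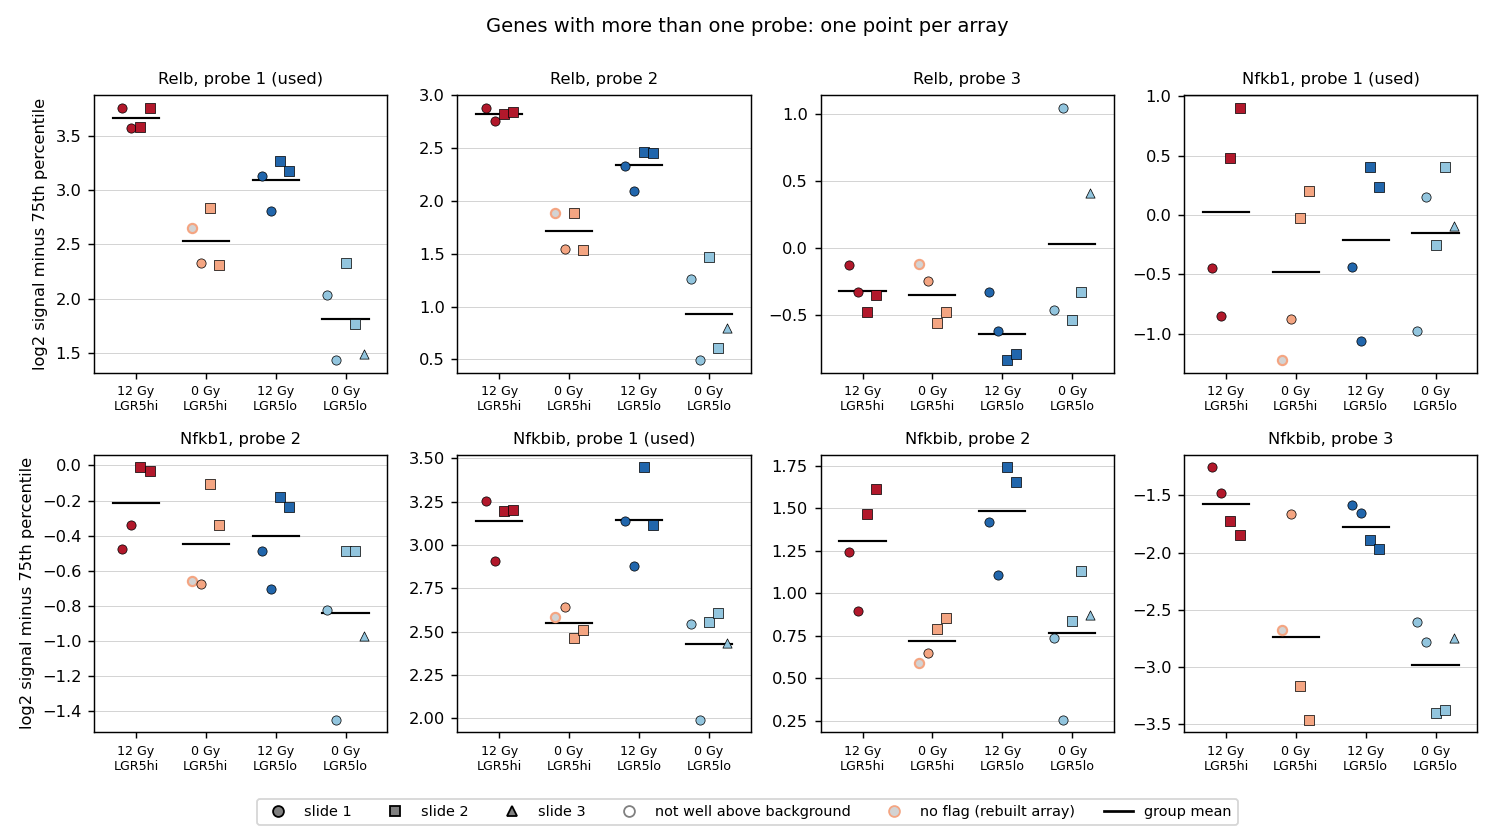
Level (log2, scaled to the 75th percentile of each array, own axis per probe) on every array for each probe of the 3 genes with several probes, by dose and sort, with group means as lines. Probe 3 of Relb shows no rise after 12 Gy, with a mean of -0.32 in irradiated and -0.35 in non-irradiated LGR5hi, against 3.67 and 2.53 for probe 1.

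The irradiation effect was compared between the sorts by the difference of the 2 differences. None of the 10 genes was called by limma (0.0399% of all genes were), and 1 gene, Nfkb2, had an unadjusted p under 0.05, as did 6.8% of all genes. For Nfkb2 the LGR5hi effect exceeded the LGR5lo effect by 1.04 ± 0.34 (95% interval 0.32 to 1.75), with a limma adjusted p of 0.547. For Nfkbia the difference of effects was 0.25 (-0.30 to 0.79), for Tnfaip3 0.27 (-0.50 to 1.04) and for Nfkbie 0.55 (-0.25 to 1.35). For Relb it was -0.15 (-0.72 to 0.43), for Rela -0.18 (-0.69 to 0.33) and for Nfkbib -0.13 (-0.60 to 0.34). The intervals of Bcl3 (-0.92 to 1.0) and Nfkb1 (-0.74 to 1.86) were wider.

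Between the sorts at the same dose, 1 of the 10 genes was called without irradiation and 1 after it. Either count is near what the share of all genes called would give. Without irradiation Relb was higher in LGR5hi, at 2.53 ± 0.25 (SD, n = 4) against 1.81 ± 0.38 (n = 5) in LGR5lo, a difference of 0.72 ± 0.19 (limma adjusted p = 0.0233). It was the only call of 10, where 9.58% of all genes were called, 4.64% as higher. No gene was separated upward on every array, as 5.71% of all genes were. Nfkb2 was lower in LGR5hi on every array, with a mean of 0.51 ± 0.10 against 1.24 ± 0.57 in LGR5lo, a difference of -0.73 ± 0.23 (limma adjusted p = 0.0578). The share of all genes separated downward is not given here, so this separation has no background to be read against. Rela differed by 0.51 ± 0.17 (limma adjusted p = 0.0632) and Nfkbia by 0.46 ± 0.18 (limma adjusted p = 0.115). Arrays of the 2 sorts with the same number deviated together, and with that pairing as a random block 3 genes were called: Relb, Rela at 0.51 (limma adjusted p = 0.0305) and Nfkb2 at -0.70 (limma adjusted p = 0.0335), where 15.2% of all genes were called. With the pairing as a fixed block, chosen after seeing the data, Relb alone was called, at 0.64 ± 0.13 (limma adjusted p = 0.0195). In that fit 8.66% of all genes were called. The Relb call without the block was lost when non-irradiated LGR5hi replicate 1 or 3 or non-irradiated LGR5lo replicate 5 was left out (limma adjusted p 0.065 to 0.0793). Nfkb2 was called without non-irradiated LGR5lo replicate 1, 2 or 3 (-0.86 to -0.81, limma adjusted p 0.0218 to 0.0462), and Rela without non-irradiated LGR5hi replicate 3 or LGR5lo replicate 1 (limma adjusted p 0.036 to 0.0429). Within slides 1 and 2 the Relb difference was 0.76 and 0.52, and that of Nfkb2 -0.26 and -0.98. With slide as a block Relb differed by 0.64 ± 0.18 and was not called (limma adjusted p = 0.0505). Probe 3 of Relb differed the other way, by -0.38 ± 0.27 (limma adjusted p over all probes 0.414), and with the mean of the gene's probes the difference was 0.38 and not called. Of the 22 leukocyte markers tested, 7 were lower and 1 higher in LGR5hi than in LGR5lo without irradiation, and 1 was lower after it. Their part in these differences was not tested.

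After irradiation Nfkbia was higher in LGR5hi, with 6.93 ± 0.15 against 6.23 ± 0.33 in LGR5lo (SD, n = 4 each), a difference of 0.71 ± 0.19 (limma adjusted p = 0.031). It was again the only call, where 6.32% of all genes were called, 2.22% as higher. Rela, Relb and Nfkbia were higher in LGR5hi on every array, as 11.1% of all genes were. Relb differed by 0.57 ± 0.20 (limma adjusted p = 0.11), and with the pairing as a random block it was called (limma adjusted p = 0.0314) beside Nfkbia, where 10.5% of all genes were. Relb was also called with the pairing as a fixed block, again chosen after seeing the data (limma adjusted p = 0.0296), where 8.45% of all genes were. Rela differed by 0.33 ± 0.17 (limma adjusted p = 0.343). The Nfkbia call was lost without any of 7 arrays (irradiated LGR5hi replicates 1, 2, 3 and 4 and irradiated LGR5lo replicates 1, 2 and 3), with limma adjusted p between 0.0505 and 0.104. Within slides 1 and 2 the Nfkbia difference was 0.92 and 0.50.

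**Figure D4:**
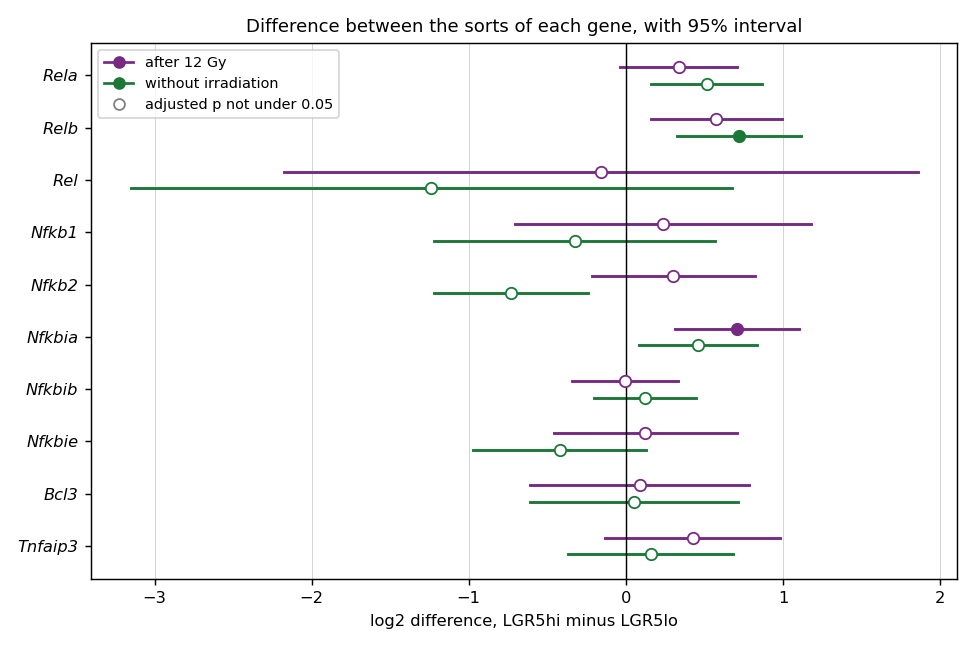
Difference between the sorts (log2, LGR5hi minus LGR5lo) of each gene after 12 Gy and without irradiation, with 95% intervals from limma and hollow points where the adjusted p was not under 0.05. Only Relb without irradiation (0.72) and Nfkbia after 12 Gy (0.71) are filled; Nfkb2 is at -0.73 without irradiation.

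The order of the 4 group means was the same for Rela, Relb, Nfkbia, Tnfaip3 and Bcl3, which was not called: irradiated LGR5hi, then irradiated LGR5lo, then non-irradiated LGR5hi, then non-irradiated LGR5lo. For these genes the non-irradiated groups overlapped in range, and for Tnfaip3 and Bcl3 the irradiated ones did too. For Relb the lowest irradiated LGR5lo array (2.81) was just under the highest non-irradiated LGR5hi array (2.83). Nfkb2 and Nfkbie had the 2 non-irradiated groups in the other order, LGR5hi (0.51 ± 0.10 and -1.50 ± 0.16, SD) below LGR5lo (1.24 ± 0.57 and -1.08 ± 0.66). Nfkbib stood at 3.14 ± 0.16 in irradiated LGR5hi and 3.15 ± 0.23 in irradiated LGR5lo, then at 2.55 ± 0.08 in non-irradiated LGR5hi and 2.43 ± 0.25 in non-irradiated LGR5lo.

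The rest of the pathway was described through 7 lists with 121 genes, of which 109 were tested. After irradiation 30 rose and 6 fell in LGR5hi and 26 rose and 3 fell in LGR5lo. Values below give LGR5hi before LGR5lo, and each list's count is to be read against the shares of all genes given above.

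Of the ligands, 8 of 12 were tested. In LGR5hi 2 rose and 1 fell, and in LGR5lo 1 rose. Tnf, the tumour necrosis factor gene, rose by 2.14 ± 0.35 in LGR5hi and 2.16 ± 0.33 in LGR5lo (log2 ± SE, limma adjusted p 0.000583 and 0.00072). Ltb, a ligand of the noncanonical route, rose in LGR5hi by 1.16 ± 0.35 (limma adjusted p = 0.0401) and differed by 0.67 in LGR5lo. Tnfsf13b, which encodes the B-cell activating factor, fell by 2.57 in LGR5hi (SE 0.78, limma adjusted p = 0.0387) and differed by -0.84 in LGR5lo. Il33, an epithelial alarm cytokine gene, differed by 1.39 ± 0.74 and 1.93 ± 0.70 and was called in neither sort. Of the receptors, 17 of 18 were tested, and 5 rose and 1 fell in LGR5hi, against 4 and 1 in LGR5lo. Tnfrsf12a, the receptor of the cytokine TWEAK, rose by 3.12 ± 0.28 and 2.93 ± 0.26, and Nod2, a sensor of bacterial cell wall fragments, by 1.65 and 1.30. Cd40 rose by a fitted 3.04 and 2.10, but only 1 of 3 flagged non-irradiated LGR5hi arrays had it well above background, so the first size is uncertain. Tnfrsf1a, a Tnf receptor, rose by 0.75 and 0.92. Nod1, chosen after its values were seen as the receptor that fell, changed by -1.51 and -0.86.

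All 26 adaptors and kinases were tested, of which 6 rose and 1 fell in LGR5hi, against 8 and 1 in LGR5lo. Ikbke, a kinase of the inhibitor kinase family, rose by 2.21 ± 0.24 and 1.66 ± 0.23, Myd88, the adaptor of Toll-like and interleukin-1 receptors, by 1.06 and 0.98, and Chuk, the catalytic kinase of the noncanonical route, by 0.85 and 0.74. Traf5 fell by 0.72 in LGR5hi and by 0.93 in LGR5lo. Of the 7 genes of genotoxic signalling to NEMO, the regulatory subunit of the kinase complex, only Pidd1 was called, and it rose by 2.40 ± 0.20 and 2.18 ± 0.19 (limma adjusted p 1.17e-06 and 3.74e-06). Pidd1 is also a known p53 target. Parp1 differed by -0.69 in LGR5hi and by -0.44 in LGR5lo.

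All 19 ubiquitin ligases, editors and brakes were tested, with 3 that rose in LGR5hi and 2 in LGR5lo. Tnip3, a binding partner of the Tnfaip3 product, rose by 2.99 ± 0.37 and 2.39 ± 0.35, and Rbck1, a part of the linear ubiquitin ligase, by 1.25 and 1.14. Birc3, a ubiquitin ligase at Tnf receptors, rose by 1.6 ± 0.28 in LGR5hi and differed by 0.85 in LGR5lo (limma adjusted p = 0.0715). Tnip2 differed by 0.58 and 0.75 and was not called. Of the 5 other nuclear modulators Pdlim2, a ubiquitin ligase for Rela, rose by 2.07 and 1.65, while Nfkbiz, a further inhibitor-like nuclear protein, differed by -0.17 and -0.23. Nkrf differed by 0.46 and 0.55 and Commd1 by -0.39 and -0.05, and neither was called. Of 34 target genes, 27 were tested, and 12 rose and 3 fell in LGR5hi, against 9 and 1 in LGR5lo. Their median difference was 1.04 and 0.56. Lcn2, an iron-trapping antibacterial protein gene, rose by 4.43 ± 0.54 and 3.55 ± 0.52, and Cxcl16, a chemokine gene, by 3.91 ± 0.18 and 3.51 ± 0.17. Csf1, the macrophage growth factor gene, rose by 3.20 and 3.06, and Ier3 by 2.62 and 1.55. The 3 that fell in LGR5hi, named after their values were seen, were Cd83, Sdc4 and Pigr, and Cd83 also fell in LGR5lo.

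**Figure D5:**
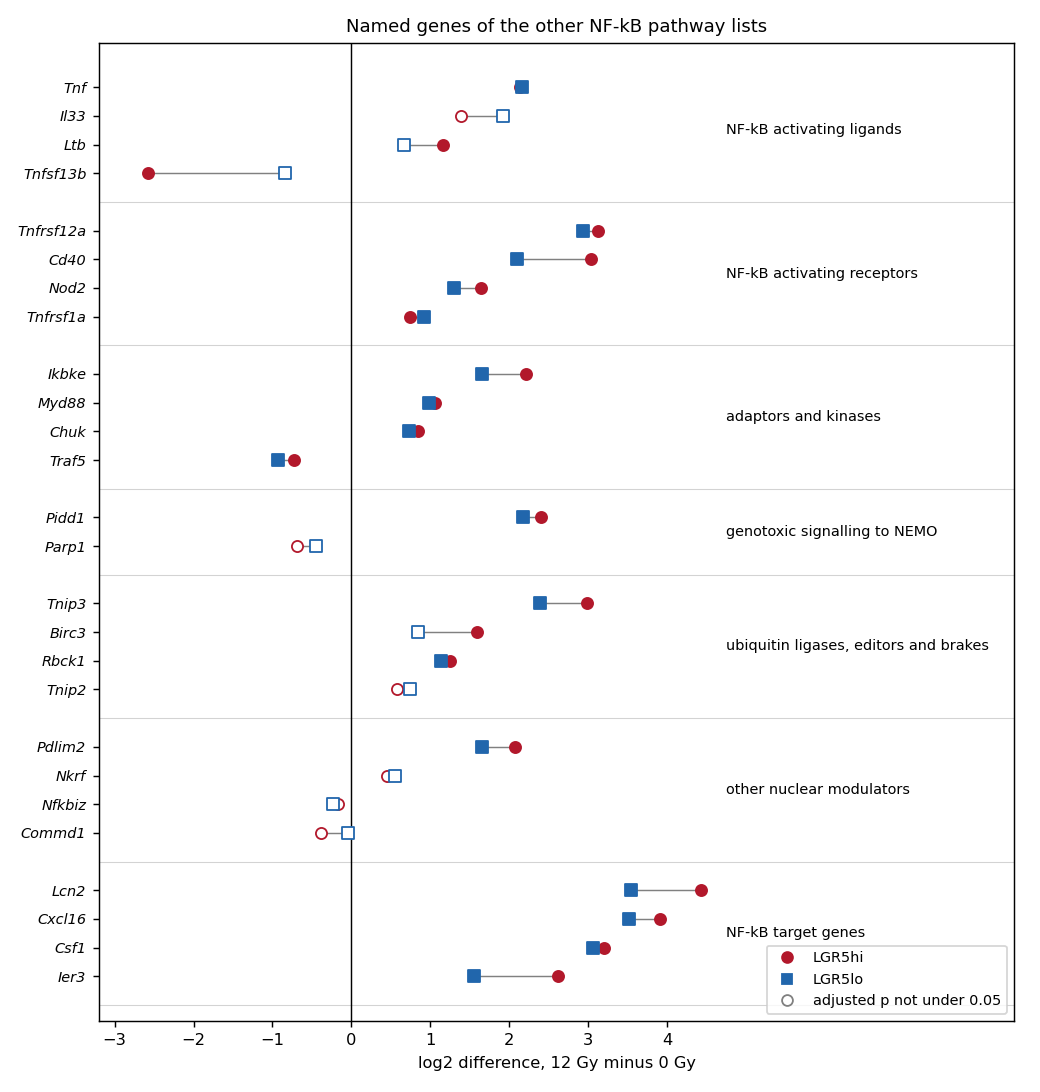
Irradiation difference (log2, 12 Gy minus 0 Gy) in LGR5hi and LGR5lo of the named genes of the 7 other pathway lists, hollow where the limma adjusted p was not under 0.05. The 4 target genes range over 2.62 to 4.43 in LGR5hi, and of the 2 genotoxic signalling genes drawn Pidd1 alone is filled.

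For each called gene, the 2 other genes with the most similar profile were found among 18050 gene names of the RefSeq table, by the root-mean-square difference of mean-centred log2 levels over the 17 arrays. For Nfkb2 they were Arhgef3 (0.27) and Polk (0.28), for Nfkbia Rhbdf2 (0.22) and Rbms1 (0.23), for Rela Mafg (0.12) and Prep (0.13), and for Relb Cenpt (0.17) and Abcc1 (0.18). For Nfkbib they were Ciapin1 and Klhdc4, for Nfkbie Ddx19a and Cby1, and for Tnfaip3 Ppl and Klf6. Among the 10 genes themselves, Nfkbia and Tnfaip3 were each other's nearest (0.35), as were Rela and Nfkbib (0.27). The points share arrays and scaling, and a gene with small changes is close to more genes than a gene with large ones.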

How the data were processed

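RNA of the 17 samples was hybridised to 1-colour Agilent mouse arrays, and the deposited scanner files, written by Agilent Feature Extraction 10.7.3.1 per the file headers, hold background-subtracted processed signals as intensity values. The deposited series table holds log2 values of the same arrays. With a constant per probe added, taken from the other arrays, they equal the scanner values scaled to the 75th percentile. This held within 0.02 log2 for 99.6% to 99.8% of probes on each intact array. On replicate 1 of non-irradiated LGR5hi, whose deposited scanner file is damaged, it held for 100% of 13422 readable probes after a further constant for the array. The values of that array were therefore rebuilt from the series table plus each probe's constant on the other arrays. From the intensities, log2 minus the array's 75th percentile was computed. The names of the 10 genes were taken from the files. Of all non-control probes, 27229 were matched to a gene name by accession, 3586 by symbol and 565 by synonym, and 24301 were unmatched. Limma 3.58.1 (R 4.3.3) was fitted to 4 group means over all 17 arrays, with Benjamini-Hochberg adjustment over 27580 gene names. Other steps used Python 3.11.15, numpy 2.4.6, pandas 2.3.3, scipy 1.17.1 and matplotlib 3.10.9. Same-numbered LGR5hi and LGR5lo arrays deviated together (correlations 0.18 to 0.46 with irradiation and 0.12 to 0.35 without). Their numbers were therefore treated as pairs in the block fits, on the data's evidence and not the labels', but not in the main fit. Such arrays also shared sex and slide, so pairing cannot be told from effects of sex and slide. Signal over background and the number of arrays limit the precision. Named genes are the 10 members, up to 3 per list and sort with the smallest p, and 2 nearest profiles per called member; 2 genes that the rule names are not reported here. The members and lists were chosen with earlier results of these data known. Alternatives covered scaling, background, filters, probes, blocks, sex and left-out arrays.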

Additional observations from a re-analysis of the deposited data

Results flagged for a closer look

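In 40 groups of 4 or 5 arrays, each of 1 gene, the highest and the lowest array were compared with the others, and in 3 groups an array's gap to its nearest neighbour, as a share of the group's range, passed Dixon's 95% critical value, which is higher for 4 arrays than for 5. Chance gives about 1 in 20 groups. All 3 were replicate 2 of non-irradiated LGR5lo, the array with more spots above background than the rest and a spike-in slope of 0.79. Its Rel level was -1.76, where the other 4 arrays spanned -7.44 to -6.22. Its Nfkbib level was 1.99, where the others spanned 2.43 to 2.61. Its Nfkbie level was 0.057, where the others spanned -1.58 to -1.16. What set this array apart was not tested.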

How the results depend on the processing

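The 5 counts of called genes were recomputed under 33 planned settings and 2 chosen after seeing the data, except that a fit of only the compared groups cannot give the difference of effects and the fixed arm block cannot give the irradiation comparisons, and no called value changed sign. After irradiation 7 genes were called in each sort. In LGR5hi the count was 2 within slide 1, and 6 to 8 in each of the other settings except slide 2 (5). In LGR5lo it was 0 within slide 1, 1 within slide 2 and 5 to 8 elsewhere. Each count of 8 includes Rel, whose non-irradiated level is mostly a bound. With a single array left out the counts spanned 6 to 8 in LGR5hi and 6 to 8 in LGR5lo, and the difference of effects had 0 to 0 called. Without non-irradiated LGR5hi replicate 1, 10.2% of all genes were called in LGR5hi and 6.57% in LGR5lo. These shares were 18.7% and 9.18% without non-irradiated LGR5lo replicate 2, and 11.9% and 7.32% without irradiated LGR5hi replicate 2. Those for the other left-out arrays are not given here. Within a slide, 2 arrays a group limit what can be called. The LGR5hi Nfkbib call was lost with median centring (limma adjusted p = 0.136) and normexp background correction (0.0633), and the LGR5lo Nfkbib call with only the compared groups in the fit. Nfkbie in LGR5lo was called in 11 of 17 settings other than the main fit and single left-out arrays, the fewest of the 7 genes called there. Quantile normalisation put the median of all genes in LGR5lo at 0.07 in place of -0.13, and normexp put that in LGR5hi at 0.10 in place of -0.02, and the medians of the 10 genes were then 1.05 and 1.01.

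The counts between the sorts rest on single genes near the threshold. Without irradiation the count of 1 became 2 with quantile normalisation, 3 with the random replicate block, 3 with a trended and robust variance, and 0 with normexp, the mean of a gene's probes, slide as a block, either slide alone, only the compared groups, or without both the damaged array and the one that stands apart. After irradiation the count of 1 became 2 with quantile normalisation, the mean of a gene's probes, only the compared groups, and each of the 3 replicate block fits of the pairing, and 0 with median centring, normexp and within either slide. Leaving out single arrays gave 0 to 3 and 0 to 1. The share of all genes called moved with the setting too, from 9.58% and 6.32% in the main fit. Without irradiation it was 8.59% with quantile normalisation, 15.2% with the random replicate block, 3.59% with normexp and 4.20% with only the compared groups. After irradiation it was 6.90%, 10.5%, 5.18% and 11.2% in the same settings. Within slides 1 and 2 it was 0.377% and 0.877% without irradiation, and 1.15% and 0.424% after it. With non-irradiated LGR5hi replicate 1 left out it was 5.25% without irradiation and 5.86% after it. The shares with a trended and robust variance and with the mean of a gene's probes are not given here. Numbers shared by irradiated and non-irradiated arrays do not pair them (correlations -0.03 to 0.16 in LGR5hi and -0.10 to 0.22 in LGR5lo, with 1 of 4 arrays closest to its own number in each). With the number as a fixed replicate block 7 and 6 genes were called, where 15.7% and 9.0% of all genes were. Nfkbie in LGR5lo was then at 0.84 (limma adjusted p = 0.0691).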
